A study of Homo sapiens with 6 samples.

Results

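The zinc finger cluster at 19q13.43 is a run of tandem zinc finger genes near the end of the long arm of chromosome 19, and its RNA levels were compared between K562 cells that depended on full-length EP400 and cells that depended on EP400 without its TRRAP-binding part. A list of 47 member genes was matched by symbol to the count tables, which hold 60609 genes, and 38 members had a raw total of 30 or more over the 6 libraries. Poly(A) RNA of K562, a human leukaemia line with erythroid and megakaryocytic features, was sequenced in 3 WT and 3 Delta-TRRAP libraries. All cells carried EP400-dTAG in place of endogenous EP400, and all were treated with 500 nM dTAGV-1, a degrader of the tagged protein, for 24 h. WT cells expressed an exogenous full-length EP400 from the AAVS1 safe-harbour locus, and Delta-TRRAP cells expressed an exogenous EP400 lacking the region that contacts TRRAP, a large subunit of the TIP60 complex that transcription factors bind. Each line was 1 clone, so clone and EP400 form cannot be told apart, and the p-values measure the spread among libraries of 1 clone per group.

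Most members encode KRAB zinc finger proteins, which bind DNA through arrays of C2H2 fingers and recruit TRIM28 through the KRAB domain. TRIM28 brings the histone methyltransferase SETDB1 and HP1 proteins, which deposit and read H3K9 trimethylation, and the best known targets are transposable elements. Such genes lie in tandem clusters on chromosome 19, and several members, among them ZNF582, ZNF671, ZNF154, ZNF471, ZIK1 and ZSCAN18, are known for methylation of their promoters in tumours.

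Total counts ran from 39966818 to 42616061 in the WT libraries and from 35076835 to 38491513 in the Delta-TRRAP libraries. EP400 itself ranged from 4833 to 5285 raw counts over the WT libraries and from 4119 to 7009 over the Delta-TRRAP libraries, where tagged and exogenous transcripts cannot be told apart. Of 8 erythroid and megakaryocytic markers, HBE1 had 6 to 49 raw counts and ITGA2B had 638 to 685 in the WT libraries and 77 to 106 in the Delta-TRRAP libraries, whereas each of the other 6 had at least 1750 in every library. The line is labelled as lymphoblast, yet MS4A1 of B cells was at 0 in all libraries and the T cell genes CD3E and CD2 had at most 20 counts. For fibroblasts, PDGFRA was at 0 and COL1A1 had at most 40 counts. The epithelial genes KRT8 (9011 to 10945 raw counts) and EPCAM (6472 to 7314 in the WT group, 2356 to 2419 in the Delta-TRRAP group) were abundant, and the part of these differences in the members' values was not tested. In bulk RNA, fewer expressing cells and less RNA per cell cannot be told apart.

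The members fell into 2 blocks on GRCh38. The first held 7 genes over 0.296 Mb, at chr19:56375846-56671783, and only ZNF582 and ZNF583 of it reached the minimum of 30 counts. The second held 40 genes over 1.161 Mb, at chr19:57320472-58481230, and 36 of them reached it. Promoters of 43 members were found in RefSeq (GRCh38.p14), each running from 250 bases before to 50 bases after the start. ZNF471, ZNF211, ZNF552 and ZNF417 had no match. The sequences below belong to the 4 members with the largest rise in Delta-TRRAP, to ZNF749, a member with a fall, and to ZNF154, a member that was nearly silent in all libraries. They are shown without bases of annotated exons, and capitals mark matches on either strand to CCGGAAG, a motif bound by ETS-family factors, and to ACTACNNNNCCCAG. The latter is the pair of 5-base words, at a fixed gap of 1 to 8 bases, that the most member promoters held, so its frequency among them is what chose it. ZSCAN18 is from chr19:58118428-58118654 on the minus strand, ZNF549 from chr19:57527106-57527324 on the plus strand, ZIK1 from chr19:57583976-57584139 on the plus strand, ZNF418 from chr19:57935403-57935652 on the minus strand, ZNF749 from chr19:57435075-57435324 on the plus strand and ZNF154 from chr19:57709205-57709454 on the minus strand.
ZSCAN18: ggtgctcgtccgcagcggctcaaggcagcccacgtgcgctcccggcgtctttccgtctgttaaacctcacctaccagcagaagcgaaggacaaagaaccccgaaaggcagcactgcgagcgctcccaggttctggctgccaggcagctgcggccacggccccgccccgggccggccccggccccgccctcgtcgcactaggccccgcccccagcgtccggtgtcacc
ZNF549: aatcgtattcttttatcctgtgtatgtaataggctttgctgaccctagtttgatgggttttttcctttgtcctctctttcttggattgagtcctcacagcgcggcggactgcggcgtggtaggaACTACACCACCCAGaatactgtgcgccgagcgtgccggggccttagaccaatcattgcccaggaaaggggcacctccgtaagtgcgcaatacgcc
ZIK1: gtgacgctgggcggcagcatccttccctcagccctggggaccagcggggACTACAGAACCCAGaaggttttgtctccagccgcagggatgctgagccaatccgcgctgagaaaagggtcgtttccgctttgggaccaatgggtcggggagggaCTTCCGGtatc
ZNF418: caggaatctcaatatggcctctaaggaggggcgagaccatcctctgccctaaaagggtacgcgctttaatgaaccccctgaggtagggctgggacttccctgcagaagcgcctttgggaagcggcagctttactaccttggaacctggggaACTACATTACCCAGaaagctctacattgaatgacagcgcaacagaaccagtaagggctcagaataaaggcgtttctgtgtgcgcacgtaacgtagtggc
ZNF749: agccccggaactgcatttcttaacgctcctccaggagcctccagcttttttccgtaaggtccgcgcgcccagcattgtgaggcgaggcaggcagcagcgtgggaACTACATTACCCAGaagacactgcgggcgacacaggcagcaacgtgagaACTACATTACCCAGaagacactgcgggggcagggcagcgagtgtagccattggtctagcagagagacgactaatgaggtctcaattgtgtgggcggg
ZNF154: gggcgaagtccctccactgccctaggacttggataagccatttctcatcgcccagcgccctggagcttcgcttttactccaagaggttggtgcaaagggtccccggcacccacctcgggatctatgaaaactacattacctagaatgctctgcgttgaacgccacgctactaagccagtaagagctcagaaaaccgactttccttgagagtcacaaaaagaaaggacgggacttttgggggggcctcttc

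The word pair stood at 1 place in the stretches of ZNF549, ZIK1 and ZNF418 and at 2 in that of ZNF749. The stretches of ZSCAN18 and ZNF154 had neither motif, and that of ZSCAN18 held 24 CpG dinucleotides in 227 bases. Over the full 300-base promoters, 16 of 43 members (37.2%) held ACTACNNNNCCCAG, against 17.1% of 181 zinc finger genes elsewhere on chromosome 19, 3.14% of promoters of tested genes and 1.64% of all 27305 promoters. CCGGAAG was in 25 of 43 (58.1%), against 38.7% of the other chromosome 19 zinc finger genes, 18.4% of promoters of tested genes and 10.7% of all promoters. The CCAAT box, searched as CCAAT, was in 60.5% of the members, 36.7% of promoters of tested genes and 35.7% of all promoters. TATAAA was in 2.33% of the members and 6.13% of promoters of tested genes. The E-box CACGTG and the GATA motif AGATAA were each in 6.98% of the members. The E-box was in 2.76% of the other chromosome 19 zinc finger genes, 9.82% of promoters of tested genes and 7.43% of all promoters. For the GATA motif these shares were 5.52%, 5.86% and 10.5%, so the direction depended on the set compared. All motifs were searched on both strands. None holds another whole in its fixed letters, although matches can overlap through an N. A match describes letters and not a bound site.

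**Figure D1:**
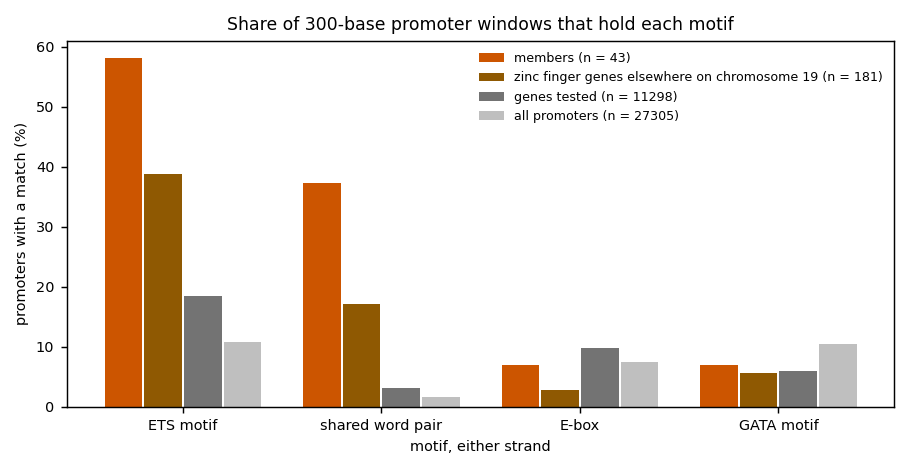
Share of promoters (percent, 250 bases before to 50 after the RefSeq start) that hold the ETS motif, the shared word pair, the E-box and the GATA motif on either strand, as bars for the members, other chromosome 19 zinc finger genes, tested genes and all promoters. The ETS motif was held by 58.1% of the member promoters, against 18.4% of tested genes and 10.7% of all promoters. The shared word pair was held by 37.2%, against 3.14% and 1.64%, but it was chosen for its frequency among the members.

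Levels differed widely among members. Values are counts normalised by TMM to a common library size, and a gene was called when edgeR's quasi-likelihood test gave an adjusted p of 0.01 or less (Benjamini-Hochberg over all 19114 genes tested) with a change of 2-fold or more. Levels were compared between genes per length, as reads per kilobase of annotated exon scaled to library depth (RPKM). ZNF587 was highest with 12.05 RPKM in WT and 7.86 in Delta-TRRAP. In WT it was followed by ZNF551 (9.62), ZNF274 (6.68), ZNF134 (6.25), ZNF552 (5.43) and ZNF544 (5.12). The lowest tested members per length in WT were ZNF549 (0.0129), ZNF606 (0.0189), ZSCAN18 (0.0304) and ZNF773 (0.0379). Summed over the 38 members, the normalised counts were 22743 ± 348 (SD, n = 3) in WT and 19519 ± 697 in Delta-TRRAP. ZNF587 alone gave up to 15.3% of the member counts of a WT library and up to 11.8% of those of a Delta-TRRAP library.

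**Figure D2:**
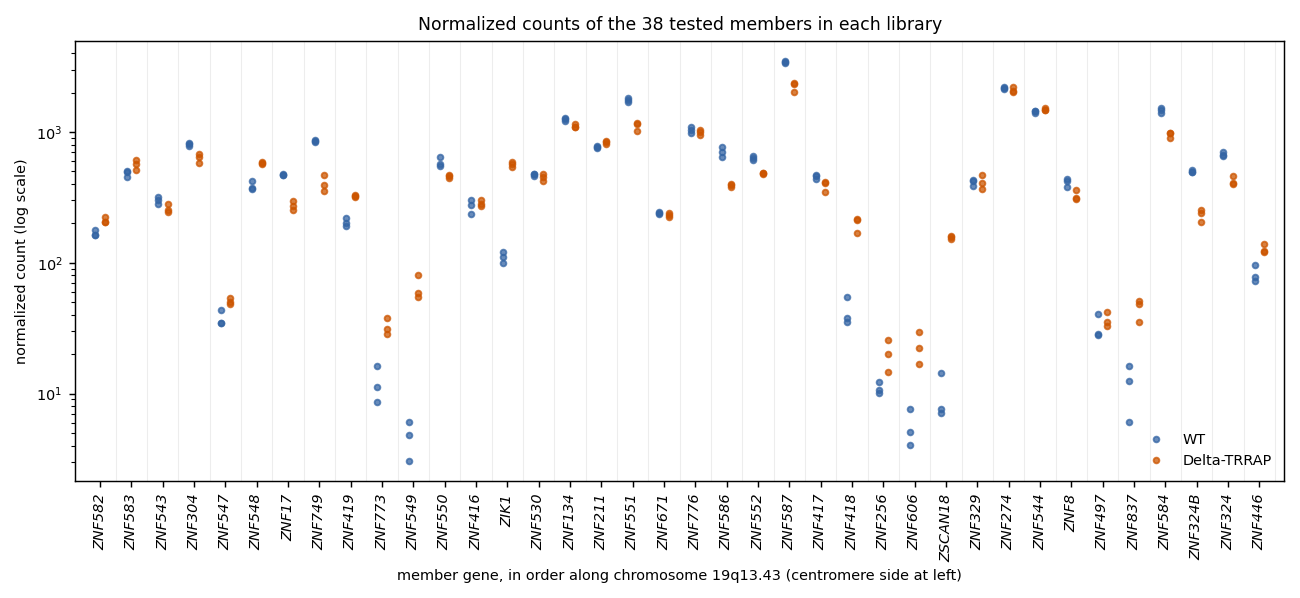
Normalised count (log scale) of each of the 38 members in the 3 WT and 3 Delta-TRRAP libraries, in chromosome order, with each point 1 library. The libraries of a group lie close together for abundant members, and ZSCAN18, ZNF549, ZIK1 and ZNF418 show wide gaps between the groups.

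Of the 38 members tested, 7 were called higher in Delta-TRRAP (ZSCAN18, ZNF549, ZIK1, ZNF418, ZNF606, ZNF837 and ZNF773) and 2 were called lower (ZNF324B and ZNF749). These are 18.4% and 5.26% of the members, beside 16.5% called higher and 6.08% called lower among all genes tested, so the shares were near the background. ZSCAN18, ZNF549 and ZNF606 had WT totals of 29, 14 and 17 raw counts and reached the minimum of 30 only through Delta-TRRAP, where they were high, and ZNF71, with 24 against 1, was left out by the same minimum. Without the fold criterion, 11 members passed the adjusted p upward and 12 downward, against 30.7% and 27.6% of all genes (58.3% either way), and 15 members did not pass. Scaled by library size alone, 15 members passed upward and 9 downward, while the median log2 fold change of all genes moved from 0.03 to 0.16. The shares of all genes that passed under that scaling are not given here, so nothing is read from this shift. WT and Delta-TRRAP libraries were fully separate for 31 members, 16 of them higher and 15 lower in Delta-TRRAP, where 37.4% and 33.7% of all genes (71.1% either way) were separate. The median log2 fold change of the members was -0.02, with a range from -1.10 to 4.01, and that of all genes was 0.03.

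**Figure D3:**
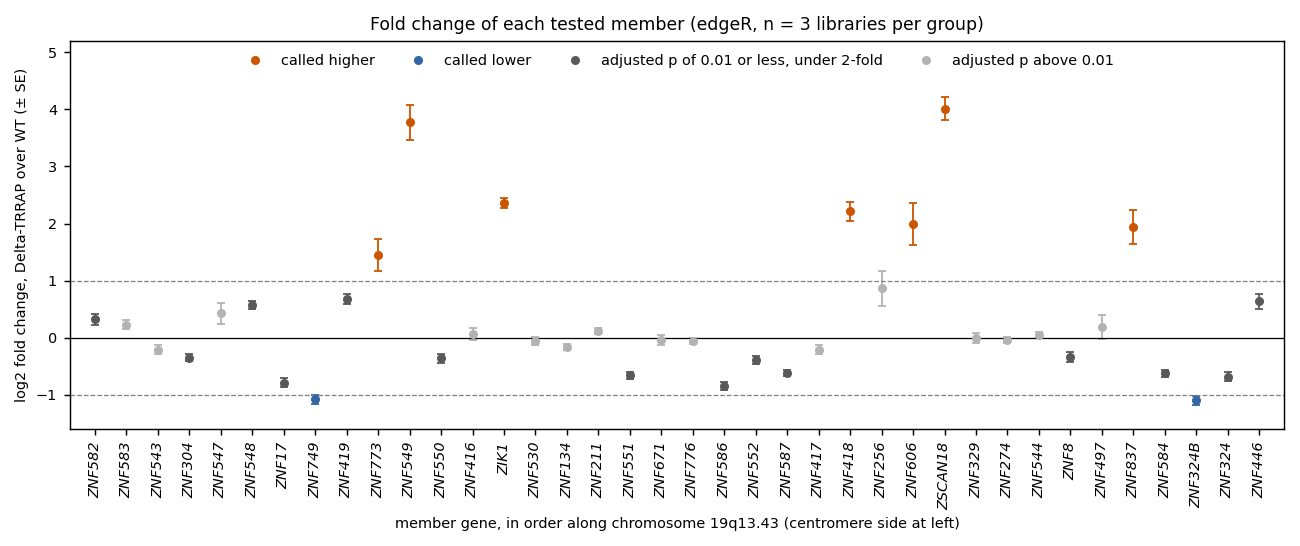
Log2 fold change (Delta-TRRAP over WT) of the 38 members in chromosome order, with bars for the standard error of the fit and dashed lines at 2-fold. The 7 members called higher reach from 1.44 to 4.01 and the 2 called lower lie at -1.10 and -1.08.

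The WT means of the risers ran from 4.65 ± 1.54 normalised counts (ZNF549) to 110.4 ± 10.2 (ZIK1). ZSCAN18 (ENSG00000121413.12), a zinc finger gene with a SCAN domain, had normalised counts of 7.09, 7.67 and 14.2 in WT and 153, 161 and 157 in Delta-TRRAP. All Delta-TRRAP libraries were far above all WT libraries, and the means of 9.67 ± 3.97 and 157 ± 3.94 gave a log2 fold change of 4.01 ± 0.20 (SE, adjusted p = 1.38e-10, edgeR quasi-likelihood). ZNF549 (ENSG00000121406.9), a KRAB zinc finger gene, had 3.04, 4.796 and 6.10 in WT and 54.9, 80.9 and 59.2 in Delta-TRRAP. Again the groups did not overlap, with a log2 fold change of 3.77 ± 0.31 (adjusted p = 3.48e-08). ZIK1 (ENSG00000171649.12), whose product is named for its interaction with hnRNP K, had 111, 99.8 and 120.1 in WT and 545, 593 and 568 in Delta-TRRAP. It was the most abundant of the risers, its groups were separate, and its log2 fold change of 2.37 ± 0.09 had the smallest adjusted p of the 38 members (5.22e-12). Per length it went from rank 28 of 38 in WT (0.528) to rank 12 in Delta-TRRAP (2.72), whereas ZSCAN18 went only from rank 36 to rank 32.

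ZNF418 (ENSG00000196724.12), which encodes a KRAB repressor, had normalised counts of 37.5, 35.5 and 54.9 in WT and 168, 214 and 212 in Delta-TRRAP. Every Delta-TRRAP library was above every WT library, and the log2 fold change was 2.21 ± 0.17 (adjusted p = 1.28e-08). The other risers reached at most 50.7 normalised counts in any library. ZNF606 had 4.05, 7.67 and 5.09 in WT and 16.7, 22.4 and 29.6 in Delta-TRRAP, a log2 fold change of 1.99 ± 0.37 (adjusted p = 0.000188). For ZNF837 the counts were 16.2, 12.5 and 6.10 in WT and 35.3, 50.7 and 48.7 in Delta-TRRAP, with 1.94 ± 0.29 (adjusted p = 2.71e-05). ZNF773, a KRAB gene that shares 8.61% of its 50-base windows with ZNF419, had 11.1, 8.63 and 16.3 in WT and 31.4, 38.02 and 28.6 in Delta-TRRAP, and rose by a log2 fold change of 1.44 ± 0.28 (adjusted p = 0.000279). In these last genes, too, the groups were apart. The 7 risers summed to 197 ± 23.8 normalised counts in WT and 1089 ± 78.8 in Delta-TRRAP, while the other 31 members summed to 22546 ± 325 and 18430 ± 699.

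ZNF324B and ZNF749, both KRAB zinc finger genes, were the only members called lower. ZNF324B had 494, 493 and 509 normalised counts in WT and 241, 252 and 205 in Delta-TRRAP. The groups were far apart, with a log2 fold change of -1.10 ± 0.08 (adjusted p = 1.58e-08). ZNF749 had 851, 875 and 845.5 in WT and 394, 467 and 355 in Delta-TRRAP, also without overlap, with -1.08 ± 0.08 (adjusted p = 1.65e-08). Both lie close to the 2-fold limit. Scaled by library size alone, their log2 fold changes were -0.96 and -0.95 and the cluster held 7 members called higher and 0 called lower, while the median of all genes moved from 0.03 to 0.16. Per length ZNF324B went from rank 14 to rank 26 and ZNF749 from rank 9 to rank 15.

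**Figure D4:**
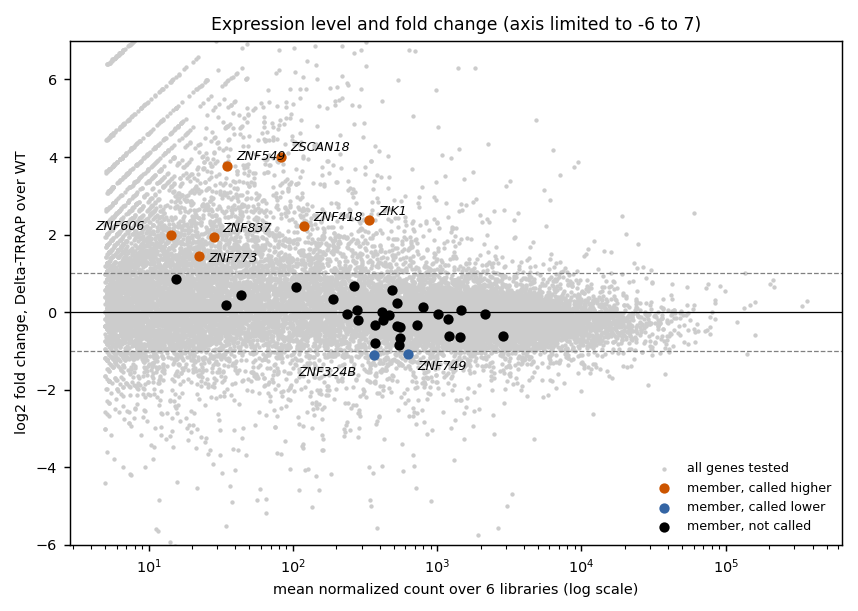
Log2 fold change (Delta-TRRAP over WT) against mean normalised count over 6 libraries (log scale), for all 19114 genes tested in grey and the 38 members in colour, with dashed lines at 2-fold. The 5 members called higher below 100 counts sit within the spread of other genes at that level, and no member above 1000 counts was called.

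The share of genes called varied with their level. Among all genes with a mean of 5 to 100 normalised counts, 30.8% were called higher and 6.31% lower. Of 8 members in that class 5 were called higher, but 3 of these reached the count minimum only through Delta-TRRAP, so nothing is read from that number. In the class of 100 to 1000, 2 of 23 members were called higher and 2 lower, beside 13.8% and 8.89% of all genes. None of the 7 members at 1000 or more was called, beside 2.41% and 3.89% of all genes. Of those 7, 3 passed the adjusted p downward and 0 upward. Among all 6804 genes at that level, 3121 passed downward and 1503 upward, so these passes are not read as a trait of the members. Zinc finger genes elsewhere on chromosome 19, a set added after the data were seen, had 29 higher (15.6%) and 9 lower (4.84%) among 186 tested, with a median log2 fold change of -0.18. No test of the difference between these sets was made.

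The most abundant members fell or did not pass the test. ZNF587, which binds endogenous retroviruses together with its near copy ZNF417, had 3459, 3371 and 3512 normalised counts in WT and 2336, 2369 and 2040 in Delta-TRRAP. Its groups were apart and its log2 fold change was -0.62 ± 0.06 (adjusted p = 2.16e-07). ZNF417 had 458, 436 and 466 in WT and 411, 415 and 350.1 in Delta-TRRAP, a difference of -0.21 ± 0.08 that did not pass (adjusted p = 0.0314) although the groups did not overlap. ZNF417 shares 30.3% of its 50-base windows with ZNF587, and ZNF587 shares 22.4% with it, so the values of both are uncertain where reads could not be placed uniquely. ZNF274, which recruits SETDB1 to the ends of other zinc finger genes, had 2159, 2119 and 2223 in WT and 2210.3, 2041 and 2049 in Delta-TRRAP. The groups overlapped and the log2 fold change was -0.05 ± 0.05 (adjusted p = 0.460). ZNF551 had 1751, 1705 and 1823 in WT and 1159, 1175 and 1014 in Delta-TRRAP, and fell by 0.66 ± 0.06 on the log2 scale (adjusted p = 1.74e-07). ZNF584 likewise had 1402, 1534 and 1480.4 against 978, 989 and 896, with -0.62 ± 0.06 (adjusted p = 1.83e-07). ZNF544 had 1461, 1396 and 1455 in WT and 1467, 1529.6 and 1470.3 in Delta-TRRAP. All its Delta-TRRAP libraries were slightly above all WT libraries, yet its log2 fold change of 0.05 ± 0.05 did not pass (adjusted p = 0.390).

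ZNF304, ZNF8, ZNF671 and ZNF582 are further members with a known role, and each differed by less than 2-fold. ZNF304, which recruits a corepressor complex to silence tumour suppressor genes, had 821, 817 and 779 normalised counts in WT and 674, 650.2 and 576 in Delta-TRRAP. The groups were apart and the log2 fold change was -0.35 ± 0.07 (adjusted p = 0.000308). ZNF8, a repressor linked to SMAD signalling, had 438, 377 and 424 in WT and 316, 306 and 358 in Delta-TRRAP, without overlap and with -0.34 ± 0.09 (adjusted p = 0.00254). Its gene lies on the same strand as the readthrough gene ZNF8-ERVK3-1, and reads over exons of both could have been lost from each. ZNF671, often methylated in carcinomas, had 240.1, 235 and 244 in WT and 225, 234 and 242 in Delta-TRRAP. These ranges overlapped, with -0.04 ± 0.09 (adjusted p = 0.706). ZNF582, also known for methylation in tumours, had 179, 163 and 163 in WT and 205, 205 and 223 in Delta-TRRAP, without overlap, and 0.32 ± 0.10 (adjusted p = 0.00788).

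The remaining members that passed the adjusted p without a 2-fold change were ZNF419 (0.67), ZNF446 (0.64) and ZNF548 (0.58) upward, and ZNF586 (-0.85), ZNF17 (-0.79), ZNF324 (-0.68), ZNF552 (-0.39) and ZNF550 (-0.36) downward, in log2 fold changes. ZNF446 overlaps ZNF324 by 1420 bases on the same strand and moved the other way. ZNF256 had the largest difference that did not pass, 10.1, 10.6 and 12.2 normalised counts in WT and 25.5, 14.6 and 20.1 in Delta-TRRAP, which is 0.87 ± 0.31 (adjusted p = 0.0215). Without Delta-TRRAP replicate 2 it was called, at 1.05 (adjusted p = 0.00870). ZNF583, ZNF543, ZNF547, ZNF416, ZNF530, ZNF134, ZNF211, ZNF776, ZNF329 and ZNF497 also did not pass, with log2 fold changes from -0.21 to 0.43. ZNF329 had means of 416 ± 22.8 and 415 ± 53.9.

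Near copies within the cluster were set side by side. ZNF324 had 700.2, 660.0 and 666 normalised counts in WT and 459, 399.7 and 406 in Delta-TRRAP, with a log2 fold change of -0.68 ± 0.07 (adjusted p = 5.53e-07). Its copy ZNF324B, which shares 13.1% of its windows with it, had the -1.10 given above. ZNF419 had 219, 201 and 190.3 in WT and 324, 330.5 and 319 in Delta-TRRAP, a log2 fold change of 0.67 ± 0.09 (adjusted p = 4.68e-06), beside 1.44 for ZNF773. In both pairs the copies moved in the same direction, and reads that match both copies could have been lost from each. The difference between copies was not tested. ZNF552 shares 14.2% of its windows with other genes (11.3% with ZNF587B, which is no member), so its level and change are uncertain in the same way.

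Directions were mixed along the chromosome, with 18 tested members positive and 20 negative in log2 fold change. Among 37 pairs of tested members that follow each other, 16 had log2 fold changes of opposite sign. The 23 members that passed the adjusted p formed 13 runs of 1 direction, and the longest held 4 genes, from ZNF551 to ZNF587, all lower. These are counts only, no pattern in the order is read from them, and the signs of members near 0, such as ZNF329, turned with the scaling. ZNF549 and ZNF550 overlap by 22286 bases on opposite strands, and their log2 fold changes were 3.77 and -0.36. ZIK1 and ZNF416 lie on opposite strands and overlap by 456 bases at their divergent starts in GENCODE, while their RefSeq starts are 5.23 kb apart. ZNF416 had 236, 301 and 277 in WT and 301, 272 and 279 in Delta-TRRAP, so that its groups overlapped (log2 fold change 0.07 ± 0.10, adjusted p = 0.569) beside the rise of ZIK1. ZNF417 and ZNF418 lie side by side with -0.21 and 2.21, and ZNF749 was followed by ZNF419 with -1.08 and 0.67. Of the 7 members called higher, all lay in the second block, as did both that were called lower. That block held 36 of the 38 tested members, so nothing is read from this.

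**Figure D5:**
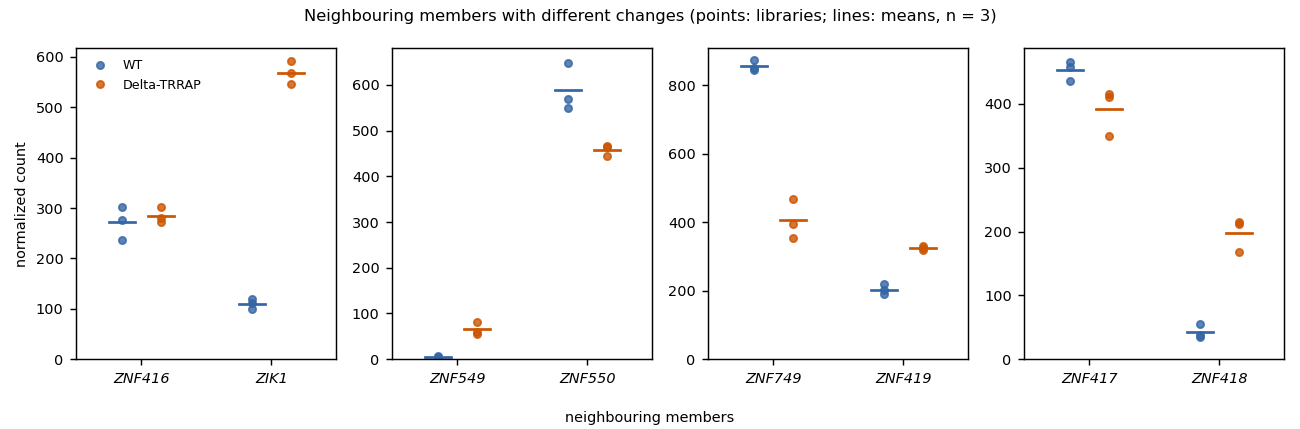
Normalised counts (linear scale, points for libraries and lines for means) in the 3 WT and 3 Delta-TRRAP libraries for 4 pairs of tested members that follow each other on the chromosome. ZIK1, ZNF549 and ZNF418 sit higher in Delta-TRRAP while ZNF416 overlaps and ZNF550 and ZNF417 sit lower, and ZNF749 sits lower while ZNF419 sits higher.

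The 9 members under the count minimum were almost silent in both groups. ZNF835 had 0 counts in all 6 libraries. ZSCAN1 had 1 count in Delta-TRRAP replicate 2 only, and ZNF132 1 count in Delta-TRRAP replicate 3 only. ZNF471, known for methylation in tumours, had 2, 0 and 0 raw counts in WT and 0, 3 and 0 in Delta-TRRAP, and ZNF154 had 1, 2 and 1 against 2, 0 and 4. ZNF667 had 1, 1 and 0 in WT and 3, 2 and 5 in Delta-TRRAP, and ZNF135 had 1, 0 and 1 against 6, 7 and 2, so the Delta-TRRAP libraries of both were higher by a few reads. ZNF470 had 1, 5 and 1 against 4, 4 and 4. ZNF71 was the opposite case, with 8, 11 and 5 in WT and 1, 0 and 0 in Delta-TRRAP, just under the minimum with a total of 25. The members just above it were ZNF606 with a total of 85 and ZNF256 with 93. Counts this low were not tested, and a count of 0 shows only that no read was assigned at this depth.

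CpG counts overlapped between the members that changed and those that did not. The 300-base promoters of the members held 11 to 42 CpG dinucleotides with a median of 25, the same as the median of 25 over tested genes and above that of 14 over all promoters. The 7 members called higher had a median of 30, as did the 8 members under the minimum that were matched. The 2 called lower had 23.5 and the 26 not called had 22.5. Within the risers the range was wide, from 13 in ZNF418 to 36 in ZSCAN18. CCGGAAG was in 4 of 7 risers, 1 of 2 members called lower (ZNF324B), 18 of 26 members not called and 2 of 8 under the minimum, and ACTACNNNNCCCAG was in 6 of 7 (all but ZSCAN18), 1 of 2 (ZNF749), 6 of 26 and 3 of 8. These are counts of few promoters and were not tested.

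Genes for silencing partners, proteins that act with KRAB zinc finger proteins or in DNA methylation, all had RNA counts in every library. DNMT1, DNMT3A, DNMT3B and UHRF1 were the DNA methylation genes among them. Of 22 such genes (22 tested), 0 were called higher and 2 lower (9.09%), UHRF1 and DNMT3B, by edgeR, beside 16.5% and 6.08% of all genes. Without the fold criterion 4 passed upward and 9 downward, beside 30.7% and 27.6% of all genes, and the median log2 fold change was -0.13. Among all 6804 genes with 1000 or more normalised counts, where 21 of the 22 lay, 1503 passed upward and 3121 downward. At that level only 2.41% of all genes were called higher and 3.89% lower, so the absence of calls upward is not read as a trait of these genes. TRIM28, the shared corepressor, whose gene lies beyond the cluster toward the chromosome end, had 22885, 23380 and 24051 normalised counts in WT and 15636, 15412 and 15542 in Delta-TRRAP. It fell by 0.59 ± 0.05 on the log2 scale (adjusted p = 3.22e-08), with groups far apart but less than 2-fold. SETDB1 had means of 1920.0 ± 65.3 and 1913 ± 80.4, a difference that did not pass. UHRF1, which guides maintenance DNA methylation, had 3341, 3369 and 3603 in WT and 1423, 1422 and 1351 in Delta-TRRAP (log2 fold change -1.30 ± 0.05, adjusted p = 1.24e-11). The de novo methyltransferase DNMT3B had 5975, 5961 and 6395 against 2703, 2802 and 2677 (-1.16 ± 0.05, adjusted p = 3.04e-11), and both genes were lower in every Delta-TRRAP library. The part of these genes in the members' changes was not tested.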

How the data were processed

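Poly(A) RNA libraries of 3 WT and 3 Delta-TRRAP samples were analysed. The authors aligned reads to hg38 with STAR and deposited raw counts per gene from HTSeq 2.0.2, counted by strand. Uniquely placed reads were counted, which can lower the values of near copies. Reads over exons of 2 genes on the same strand could be lost too, as where ZNF547 overlaps TRAPPC2B by 1855 bases. The deposited normalised table, which has 3 columns of another condition, and the authors' table of fold changes and p-values were not used. Genes with a mean normalised count of 5 or more were tested with edgeR 4.0.16 (TMM, quasi-likelihood, group as the only term, R 4.3.3), with limma 3.58.1 (voom) and DESeq2 1.42.0 as alternatives, and the fit was tested on simulated data. Positions and exon lengths came from GENCODE 44, which matched 19041 of 19114 tested genes. Total counts of 35076835 to 42616061 per library limit the precision for genes with few reads. Replicate numbers did not pair the samples (correlations of deviations -0.00946, -0.0293 and -0.0190). Values in every library were given for members called changed, members with 3 or fewer counts in a group, the 5 most abundant and those with a known role. The members and lists were chosen with earlier results of these data known. Motif shares are descriptions. 1 marker gene is not reported here.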

Additional observations from a re-analysis of the deposited data

How the results depend on the processing

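All 9 members called changed kept their call with DESeq2, limma-voom, RLE scaling, no filter on low counts, the replicate block and each library left out in turn. With the replicate block, 7 members were called higher and 2 lower, but the replicate numbers share no known pairing. Leaving out 1 library gave 7 to 8 members higher and 2 lower. With library size scaling 0 members were called lower, and at a fold change of 1.5 there were 8. At a minimum mean of 50 normalised counts, 31 members could be tested and 3 were called higher, since fewer low members entered, and 4 other genes of the interval were called against 13. At a fold change of 1.5, 5 silencing partners were called against 2. The shares of all genes called under these settings are not given here, so nothing about the cluster is read from the changed counts. The median log2 fold change of the members was 0.113 with library size scaling, -0.0444 without a filter and 0.008 at a minimum mean of 50, and ran from -0.0412 to 0.0114 with 1 library left out. The sign turned with library size scaling and at a minimum mean of 50 for ZNF530 (0.0684 and 0.008), ZNF671 (0.0945 and 0.0343), ZNF776 (0.0746 and 0.0143), ZNF274 (0.088 and 0.0278) and ZNF329 (0.131 and 0.0705). With 1 library left out, ZNF416 ran from -0.0252 to 0.148 and ZNF329 from -0.105 to 0.0713. None of these 6 passed the test. The upward pass of ZNF582 on adjusted p alone was not stable. It passed with limma-voom (adjusted p = 0.00964) but not with DESeq2 (adjusted p = 0.0389). With 1 library left out, its edgeR adjusted p ran from 0.00948 to 0.0312. The downward pass of ZNF8 was not stable either. Its edgeR adjusted p was 0.0471 with library size scaling and 0.0172 at a minimum mean of 50. For ZNF8 with 1 library left out, it ran from 0.000478 to 0.0172. Scaled by library size alone, ZNF304 (edgeR adjusted p = 0.0114) and ZNF550 (0.0136) also did not pass. Of 487 values of single members under alternatives, 469 kept direction and side of the threshold for a call. The cause of the other changes was not tested. Depth limits the members below 100 counts most.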

Other observations

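Other genes lie between the members, and 37 of the 101 listed were tested. Of these, edgeR called 9 higher (24.3%) and 4 lower (10.8%), beside 16.5% and 6.08% of all genes. Their median log2 fold change was -0.11. Except for AURKC, the genes called higher had group means below 100 normalised counts. Among all genes with a mean of 5 to 100, 30.8% were called higher. ZSCAN4 and TPRG1LP1 reached the minimum mean of 5 only through Delta-TRRAP, where they were high, so nothing is read from these counts. ZSCAN4, a SCAN-domain gene known from early embryos and telomere maintenance, had 0, 1 and 1 raw counts in WT and 41, 46 and 44 in Delta-TRRAP. Next to it, the processed pseudogene TPRG1LP1 had 4, 1 and 2 raw counts in WT and 64, 71 and 64 in Delta-TRRAP. AURKC, a kinase of meiosis, had 58, 69 and 65 raw counts in WT and 215, 191 and 179 in Delta-TRRAP (log2 fold change 1.62 ± 0.12, adjusted p = 1.26e-08, edgeR quasi-likelihood). The antisense RNA ZNF667-AS1 had 29, 24 and 29 raw counts in WT and 68, 61 and 67 in Delta-TRRAP, beside the few reads of ZNF667. VN1R1, a vomeronasal receptor gene, had 6, 11 and 11 raw counts in WT and 39, 41 and 61 in Delta-TRRAP, and ZNF460-AS1, LETM1P2, AC020915.1 and AC012313.6 were also called higher. SLC27A5, a bile acid ligase, had 915, 975 and 851 against 373, 313 and 341, and AC012313.4, AC012313.7 and AC012313.8 were also called lower.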
